A study of Mus musculus with 4 samples.

Results

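The Fgf10 locus of the mouse holds the gene for fibroblast growth factor 10 (mm9, chromosome 13, 119458598 to 119580922, plus strand), and it is described here by the accessible chromatin regions assigned to it. A region belonged to the locus when Fgf10 had the nearest transcription start of any protein-coding gene in the GENCODE vM1 annotation, or when the region lay inside the gene. The locus had 6 of the 42613 regions listed at embryonic day E9.5 and 19 of the 46765 regions listed at E10.5, together 25 of 89378. Fgf10 was chosen by its counts of regions found at 1 stage only in these same lists, so those counts are given as a description without a test.

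Open chromatin was profiled by ATAC-seq, in which a transposase inserts sequencing adapters into accessible DNA. All 4 samples came from wild-type embryos of the NMRI strain, with 2 biological replicates per stage and, by the protocol, the forelimb bud pair of a single embryo in each. The E9.5 samples, which the protocol dates to E9.75, kept the adjoining piece of trunk, and the E10.5 samples had no named trunk tissue although their tissue label adds hindlimb buds to forelimb buds. Stage therefore cannot be told apart from trunk tissue or, if that label holds, from hindlimb tissue. Whole buds also hold mesenchyme and ectoderm together. In such tissue, a larger number of cells with an open region and more openness per cell cannot be told apart either.

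The authors combined the replicates of a stage into 1 list, so no value below has a replicate error, and the sequencing depth behind each list is unknown. Each region carries a score, 10 times the negative log10 of its best MACS p-value, which grows with depth. Scores are therefore compared between stages only as percentiles, the percent of the regions of the same list with a lower score. A region is called stage-specific when it shares not even 1 bp with a region of the other list, and shared otherwise. The 6 limb mesenchyme markers examined (Prrx1, Prrx2, Twist1, Msx1, Lhx2, Lhx9) and the forelimb gene Tbx5 had a promoter region at both stages. The 7 trunk and somite markers did so as well, and of the hindlimb genes Tbx4 and Isl1 had promoter regions at both stages and Pitx1 at the earlier stage only. Of 5 markers of limb ectoderm and its ridge, 4 had one at the earlier stage and 3 at the later. An open promoter does not tell which cells carry it. The share of all protein-coding genes with a promoter region is not given beside these counts or those of the FGF ligands below. They are therefore not read as high or low.

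FGF10 is a secreted ligand made by the mesenchyme of the limb field, and it signals to the epithelial form of the receptor FGFR2 in the overlying ectoderm. There it induces Fgf8 in the apical ectodermal ridge, whose FGFs signal back to the mesenchyme and sustain outgrowth. In the forelimb the T-box factor Tbx5 acts upstream of Fgf10, and mice without Fgf10 form no limbs.

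The coding transcript Fgf10-001 begins at 119503506 and has 3 exons (119503506 to 119504518, 119570313 to 119570416 and 119577926 to 119580922), with a 5' UTR up to 119504190 and a 3' UTR from 119578121. The annotation also has non-coding transcripts that begin 44.9 kb earlier, at 119458598 and 119458631. The first of them includes exon 2 and the beginning of exon 3, and the second only the beginning of exon 2. A non-coding antisense gene, Gm16263 (119484099 to 119504203), starts on the minus strand inside exon 1 of the coding transcript. Positions below are distances of a region's centre from the start of the coding transcript, with minus for upstream. The genes on either side are Mrps30, whose start lies at -327.4 kb, and Nnt, whose start lies at 694.3 kb, so the locus sits in an interval of 1021.75 kb without another protein-coding start.

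Sequence is shown for 6 places that carry the comparison. It was read from the plus strand of NCBIM37, the assembly of mm9, 5' to 3', and capitals mark any match to the 18 short motifs spelled out further on. The bases just upstream of the coding start show the element that was open at both stages. They replace the centre of the promoter region, which lies in the 5' UTR.
Upstream of the coding start (chr13:119503306-119503505): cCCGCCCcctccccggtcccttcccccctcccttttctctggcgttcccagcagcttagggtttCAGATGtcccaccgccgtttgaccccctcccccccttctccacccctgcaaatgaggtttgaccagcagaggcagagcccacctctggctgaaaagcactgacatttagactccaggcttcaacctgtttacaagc

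The next set holds E10.5-specific regions, at 31.9 and 110.5 kb, which were among the 3 highest-scoring of that class in the locus, each by 200 bases around its centre.
Region at 31.9 kb (chr13:119535290-119535489): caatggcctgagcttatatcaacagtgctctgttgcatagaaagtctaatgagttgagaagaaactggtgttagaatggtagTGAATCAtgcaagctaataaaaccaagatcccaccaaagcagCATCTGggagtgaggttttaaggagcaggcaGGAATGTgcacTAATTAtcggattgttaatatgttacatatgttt
Region at 110.5 kb (chr13:119613880-119614079): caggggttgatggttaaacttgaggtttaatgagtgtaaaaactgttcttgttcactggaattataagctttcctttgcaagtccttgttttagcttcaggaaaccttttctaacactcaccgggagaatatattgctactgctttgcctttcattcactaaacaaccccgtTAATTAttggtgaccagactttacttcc

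The region at 7.3 kb had, at E10.5, the highest score of the distal regions present at both stages, and the regions at 44.5 and 266.8 kb are the E9.5-specific regions of the locus. They are shown to set the shared and the earlier elements beside the later ones.
Region at 7.3 kb (chr13:119510670-119510869): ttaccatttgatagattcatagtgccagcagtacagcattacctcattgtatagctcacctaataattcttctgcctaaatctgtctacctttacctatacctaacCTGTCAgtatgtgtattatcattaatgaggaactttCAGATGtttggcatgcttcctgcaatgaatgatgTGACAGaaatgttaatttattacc
Region at 44.5 kb (chr13:119547859-119548058): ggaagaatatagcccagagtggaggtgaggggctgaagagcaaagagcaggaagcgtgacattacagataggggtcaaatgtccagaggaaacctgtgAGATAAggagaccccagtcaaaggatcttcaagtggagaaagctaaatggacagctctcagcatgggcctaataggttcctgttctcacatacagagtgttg
Region at 266.8 kb (chr13:119770216-119770415): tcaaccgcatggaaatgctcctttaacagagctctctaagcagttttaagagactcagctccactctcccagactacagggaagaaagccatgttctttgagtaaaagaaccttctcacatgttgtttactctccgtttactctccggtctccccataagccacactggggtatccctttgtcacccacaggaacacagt

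Upstream of the coding start the sequence has 60% GC, with 1 SP/KLF and 1 E-box match. These letters occur in the 200 bases upstream of 38% and 9.99% of the 22380 protein-coding genes, respectively. The E10.5-specific stretches are richer in A and T, with 39.5% GC at 31.9 kb and 38.5% at 110.5 kb, and both of those printed contain the homeodomain letters. The E10.5-specific region at 77.5 kb, which is not printed and scored higher than that at 110.5 kb, had no match to any of the 18 motifs around its centre. The stretch at 7.3 kb, with 35.5% GC, has 2 MEIS matches and 1 E-box match. The E9.5-specific stretches have 48.5% GC with 1 GATA match at 44.5 kb, and 47.0% GC without a match at 266.8 kb.

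Accessible regions were more numerous around Fgf10 at E10.5 than at E9.5, and most of the E10.5 regions had no counterpart in the E9.5 list. At E10.5, 15 of the 19 regions were stage-specific (78.9%, 95% Wilson interval 56.7 to 91.5%), against 35.0% of all E10.5 regions. At E9.5, 2 of 6 were stage-specific (33.3%, 9.68 to 70.0%), against 29.9% of all E9.5 regions, which is near the background. The Wilson intervals cover counting error only, and since Fgf10 was selected on these counts nothing is read from their distance to the background. The remaining 4 regions of each list were counterparts of each other. The bases covered by Fgf10 regions numbered 8071 at E9.5 but 22051 at E10.5, a ratio of 2.73, whereas the covered bases of the whole genome had a ratio of 0.978. The common bases made up 26.3% of those covered at either stage at Fgf10 and 50.6% in the genome.

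**Figure D1:**
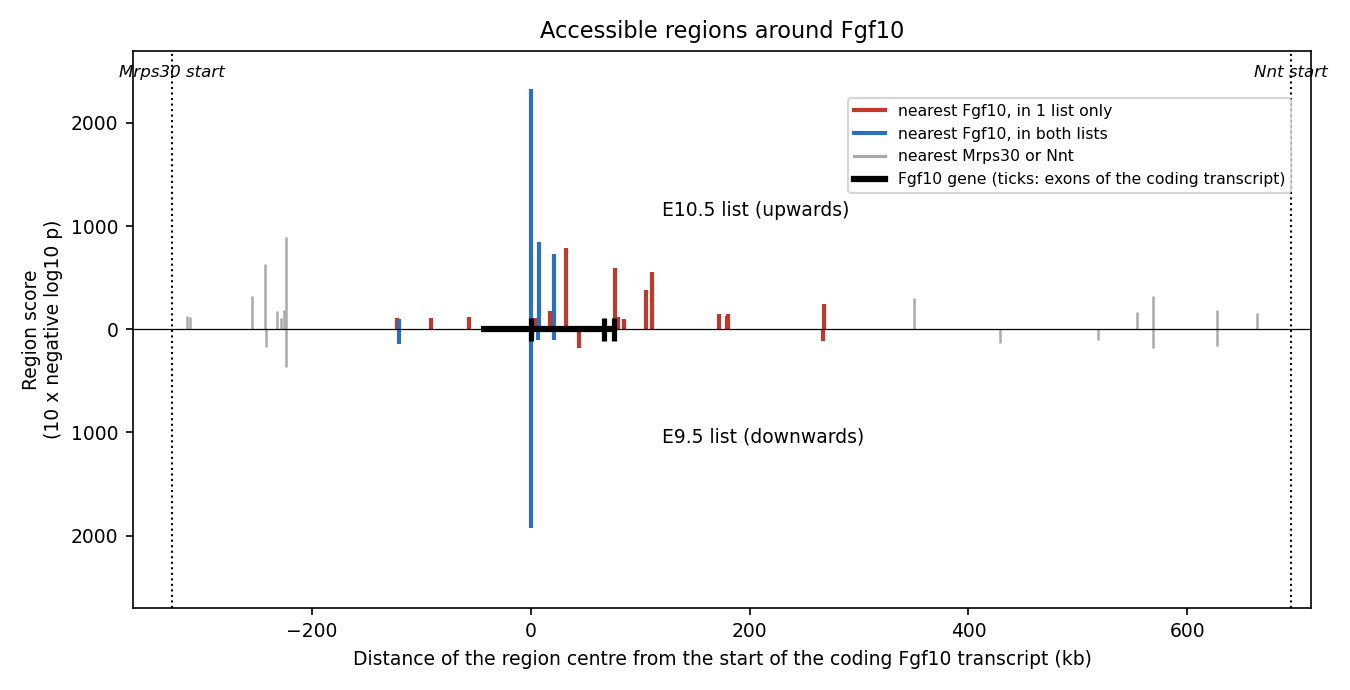
Score of each accessible region (vertical lines) against the distance of its centre from the start of the coding Fgf10 transcript in kb, with the E10.5 list drawn upwards and the E9.5 list downwards, and the gene as a black bar. The promoter scored highest at both stages (1922.89 and 2333.68). Most of the E10.5 regions were absent from the E9.5 list, and the last region lay at 266.8 kb at E9.5 and 267.8 kb at E10.5.

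The promoter was the strongest region of the locus at both stages. At E9.5 it spanned 119501663 to 119505650 (3988 bp) with a score of 1922.89, the 92.3 percentile of its list. At E10.5 it spanned 119501587 to 119505677 (4091 bp) with a score of 2333.68, the 97.4 percentile. The E9.5 region lay wholly within the E10.5 region, which covers the 5' UTR, the coding part of exon 1, the beginning of intron 1 and the start of Gm16263. The percentile was 5.07 points higher at E10.5, and 32.2% of the 30375 shared regions of the genome had a rise as large. The Fgf10 promoter was thus open at both stages with a small difference in rank. Accessibility at this promoter cannot be divided between Fgf10 and the antisense gene, and no region was found within 2.5 kb of the upstream non-coding starts at either stage.

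Within the first intron of the coding transcript, which is 65.8 kb long, a pair of regions differed most in rank between the stages among the shared regions of the locus. The region at 7.3 kb was listed at E9.5 from 119510265 to 119511063 with a score of 104.44 (8.91 percentile), and at E10.5 from 119510106 to 119511433 with a score of 848.74 (82.9 percentile). The region at 21.6 kb was listed at E9.5 from 119524433 to 119525222 with a score of 107.89 (10.8 percentile), and at E10.5 from 119524279 to 119525997 with a score of 728.54 (79.9 percentile). Both were among the weaker regions of the E9.5 list, and both contained the whole of the narrower E9.5 region at E10.5. The rises of 74.0 and 69.0 percentile points compare with a median of -0.20 over all shared regions, for which the 5th to 95th percentile range was -38.7 to 38.2 points. Rises as large were found for 86 (0.283%) and 156 (0.514%) of the shared regions. Only a region with a low E9.5 percentile can rise that far, and the lower quartile of that percentile over all shared E9.5 regions was 37.0. Most shared regions thus could not show such a rise, and these shares do not tell how rare it is among regions of like E9.5 rank.

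The remaining regions of the first intron were found at 1 stage only. At E10.5 these were the regions at 4.3 kb (score 113.6, 14.9 percentile), 17.5 kb (178.75, 38 percentile) and 31.9 kb (784.48, 81.5 percentile). The region at 31.9 kb (119534875 to 119535905) had the highest score of all E10.5-specific regions of the locus, and its nearest E9.5 region lay 9.65 kb away. At E9.5 the region at 44.5 kb (119547515 to 119548402) scored 185.55, the 37.8 percentile and the highest of the distal E9.5 regions of the locus, with no E10.5 region within 11.6 kb. The first intron thus held both the strongest distal E10.5 regions and the clearest E9.5-specific region.

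At the other end of the gene a region was listed at E10.5 only. It lay at 77.5 kb (119580345 to 119581687, score 595.14, 75.6 percentile), overlapped the last 578 bp of the gene in the 3' UTR, and was 31.9 kb from the nearest E9.5 region. It was followed by a weaker region at 79.7 kb (119.76, 17.7 percentile). Within exon 2, exon 3 and the intron between them no other region was listed at either stage.

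After the gene the E10.5 list had 7 more regions, none of which had an E9.5 counterpart. The stronger ones were at 105.3 kb (119608180 to 119609411, score 380.96, 64.3 percentile) and 110.5 kb (119613441 to 119614518, score 558, 74.1 percentile). Next to these stood a region at 85.7 kb with a score of 102.42, among the lowest of the locus. The regions at 171.9, 179.6 and 180.6 kb scored 149.39, 127.12 and 150.3, percentiles from 21 to 29.8. The pair at 105.3 and 110.5 kb thus scored higher than the regions from 171.9 to 180.6 kb. Scores did not simply fall with distance, since the region at 85.7 kb was weak. The last region, at 267.8 kb (119770736 to 119771865), scored 244.07, the 50.4 percentile. The single E9.5 region after the gene, at 266.8 kb (119769946 to 119770685, score 114.24, 14.0 percentile), ended 50 bp before it. Both were counted as stage-specific by the rule although they nearly touch.

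Before the gene the regions were weak at both stages. The region at -120.4 kb was the fourth shared pair, with a score of 141.91 at E9.5 (25.7 percentile, 119382518 to 119383383) and 100.33 at E10.5 (7.82 percentile, 119382680 to 119383588). Its percentile was 17.8 points lower at E10.5, the only fall among the shared pairs of the locus. The E10.5-specific regions at -122.5, -90.9 and -56.4 kb scored 104.95, 104.92 and 118.24, each below the 18th percentile, and the first of them lay 1.2 kb from the E9.5 region at -120.6 kb. Between the non-coding and the coding start no region was listed beyond the promoter. The E10.5-specific regions of the locus thus lay mostly within and after the gene (12 of 15), where also all those with a score of at least 200 were found.

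**Figure D2:**
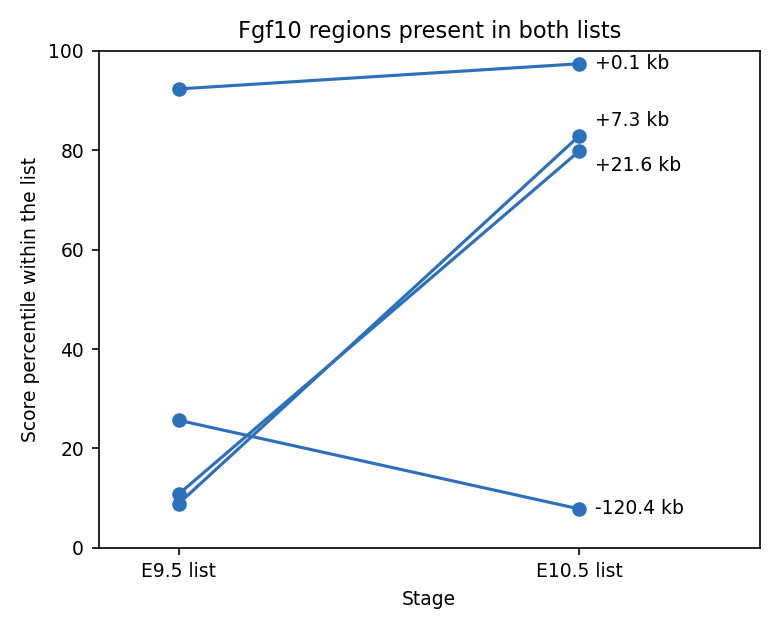
Percentile of the score within its own list (vertical axis) at E9.5 and E10.5 for the 4 Fgf10 regions present at both stages, each a pair of points joined by a line and marked with its E10.5 position in kb. The percentiles at 7.3 and 21.6 kb were 74.0 and 69.0 points higher at E10.5, that of the promoter 5.07 points higher, and the region at -120.4 kb was lower at E10.5.

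The Fgf10 regions were compared with regions of like kind because weak and distal regions are more often stage-specific in these lists. Of 18 Fgf10 regions more than 2.5 kb from any protein-coding start (distal regions) at E10.5, 15 were stage-specific, against 49.6% of the 31376 distal E10.5 regions. Among distal regions that scored at least 500, 3 of the 5 at Fgf10 were stage-specific, against 24.8% of 4431 in the whole list. When each Fgf10 region was given the stage-specific share of all E10.5 regions in its score decile, these shares summed to 7.59 of 19. The sum was 9.13 when promoter-proximal and distal regions were also taken apart, and 12.9 when GC quintiles were added. The observed count was 15. Fgf10 was chosen on this count, so nothing is read from its distance to these sums or to the shares above. At E9.5 the sums were 2.63, 2.57 and 2.26 of 6 regions, and the observed count was 2. On chromosome 13 as a whole the stage-specific share was 37.5% at E10.5 and 28.8% in the earlier list.

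In the E10.5 list GC content moved with these results. GC content was taken within 150 bp on each side of a region's centre. Its median was 39.5% for the 19 E10.5 regions of Fgf10 (range 30.2 to 56.8%), against 50.5% for all E10.5 regions and 47.2% for all distal ones. Of the 19 Fgf10 regions, 17 were below the distal median. The locus itself is poor in GC, with 37.7% over the 533.3 kb nearest to Fgf10, compared with 41.6% for chromosome 13 and 41.9% for all autosomes. Over all distal E10.5 regions the stage-specific share was 77.7% at a GC content of 38 to 40% and 10.6% at 58 to 60%. Over all distal E9.5 regions it was 40.3% and 43.1% in these bins. Of distal E10.5 regions with a GC content within the range of the distal Fgf10 regions, 64.5% were stage-specific. At E9.5 the median of the 6 Fgf10 regions was 47.8% (37.9 to 56.8%), against 54.2% in all regions. The part of GC content in the count at Fgf10 was not tested.

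**Figure D3:**
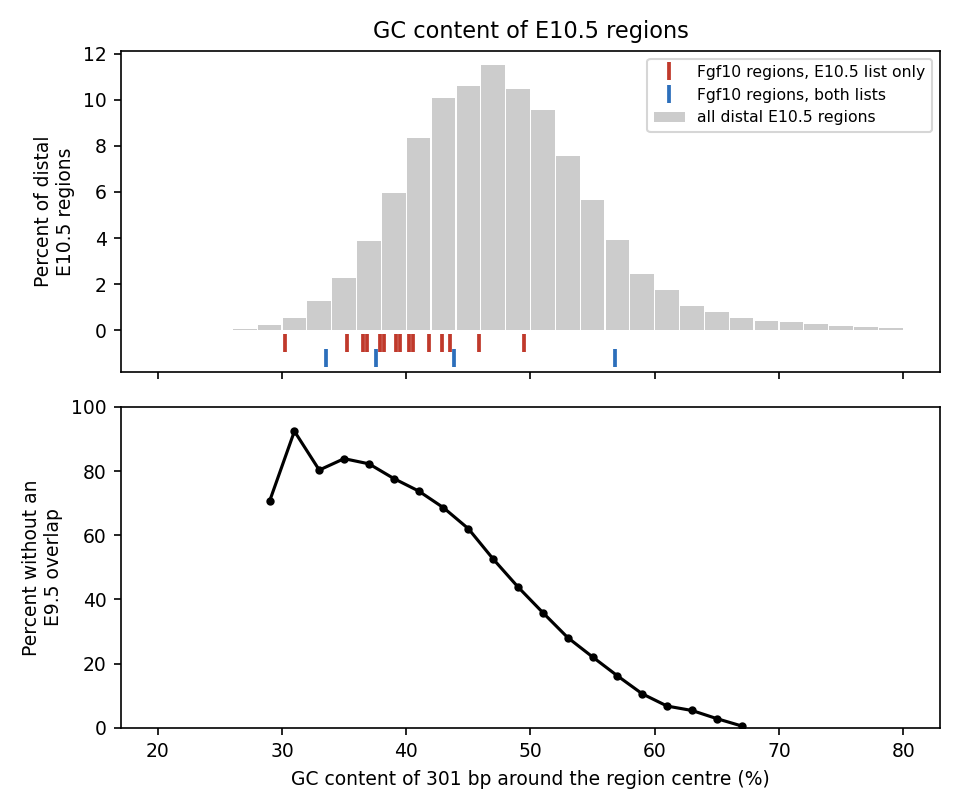
Upper panel, GC content of all distal E10.5 regions (grey bars, percent of regions per 2 percentage points) with the 19 Fgf10 regions as ticks, and lower panel, the percent of the distal regions in each bar that had no E9.5 overlap. Most Fgf10 ticks lie left of the grey peak, where the share without an E9.5 overlap was higher (77.7% at 38 to 40% GC) than to its right (10.6% at 58 to 60%).

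In width the Fgf10 regions of the E10.5 list were close to its distal regions, and their scores spread widely. Their median width was 1005 bp (600 to 4091 bp), against 1000 bp for all E10.5 regions. It was 957 bp for the 18 distal ones, against 904 bp for all distal regions. Their median score was 150.3, the 29.8 percentile. For the 18 distal ones it was 149.8, against 183.3 for all distal regions. The upper quartile of these 18 was 513.7, against 330.8 for all distal regions. Of the 19 regions, 11 scored under 200 and 10 of those were E10.5-specific. The median distance of the 18 distal regions to the nearest start was 77.5 kb (range 4.25 to 267.8 kb), compared with 42.3 kb for all distal regions. The median spacing of neighbouring regions of the locus was 8.96 kb at E10.5 and 23.1 kb at E9.5. The median number of CpG dinucleotides in that window was 2, against 4 in all distal regions.

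Short motifs were searched as exact letters on both strands within the same window, 150 bp on each side of the centre. The letters were AGGTGT for T-box factors, TAATTA for homeodomain factors, CTTTGAT for TCF/LEF, AGGAAGT for ETS, TGGGTGGTC for GLI, GTCTAGAC for the SMAD palindrome, GGCGCC for the GC-rich SMAD motif, TGACAG for MEIS, TGATTNAT for PBX, CCATAAA for posterior HOX, AACAATG for SOX, ACATTCC for TEAD, CAGATG for an E-box, AGATAA for GATA factors, TGANTCA for AP-1, GGGCGG for SP/KLF, GCCAAT for the CCAAT box and TATAAA for the TATA box, where N is any base. Matches to different motifs were counted separately and may overlap. The homeodomain letters were in 7 of the 19 E10.5 regions of Fgf10 (36.8%), compared with 8.78% of all E10.5 regions, 12% of all distal regions and 16.1% of the distal E10.5-specific regions. The regions with them were those at -56.4, 21.6, 31.9, 79.7, 110.5, 180.6 and 267.8 kb. Of these 7, 6 are E10.5-specific, which is near the 15 of 19 for all E10.5 regions of the locus. These letters hold no G or C, and the shares of all distal E10.5 regions of like GC content (bins of 2 percentage points) summed to 3.62 of the 18 distal Fgf10 regions. None of the 6 E9.5 windows had the letters, against 5.13% of all E9.5 regions, although the E9.5 window of the region at 21.6 kb is centred elsewhere than its E10.5 window. In whole regions the letters were found in 4 of the 6 E9.5 regions, against 23.1% of all E9.5 regions, and in 10 of the 19 E10.5 regions, against 27.7%, so their absence at E9.5 holds for the central windows only.

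The other motifs were in between 0 and 7 of the 19 E10.5 regions. The E-box letters were in 7 E10.5 regions, and in 6 of the 18 distal ones, where the shares of regions of like GC content summed to 5.75. For MEIS, whose proteins mark the proximal limb, these values were 5 and 4.2, and for GATA 3 and 3.28. ETS and AP-1 letters were in 3 distal regions each, against sums of 1.5 and 1.87, and SOX letters in 2 against 1.17. The TATA box letters were in 2, against 5.68, and PBX, posterior HOX, TEAD and CCAAT box letters in 1 each, against 2.34, 1.71, 1.11 and 1.89. The T-box letters, the core bound by Tbx5 and other T-box factors, had no match in the 19 windows and are in 12.8% of all E10.5 regions, and in the distal regions their sum was 2.42. TCF/LEF, GLI and both SMAD motifs had no match either (sums of 1.44, 0.026, 0.048 and 0.223). In whole regions instead of these windows, the T-box letters were found in 5 and the TCF/LEF letters in 6 of the 19, against 44.4% and 17.3% of all E10.5 regions. An absent match says only that these letters are not in the window. SP/KLF letters were found in the promoter window alone. In the 6 E9.5 windows the E-box letters were found in 3 and TCF/LEF, MEIS, PBX, posterior HOX, SOX, GATA and SP/KLF letters in 1 each, with 3 GATA matches in the region at 44.5 kb.

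**Figure D4:**
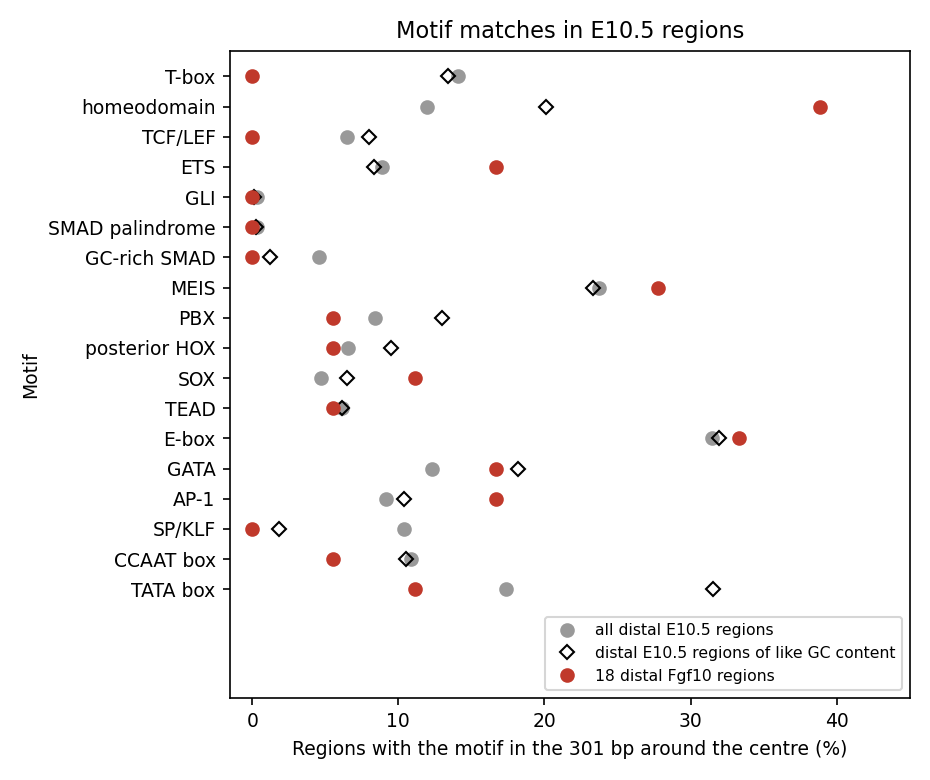
Percent of E10.5 regions with each motif within 150 bp of the centre, for the 18 distal Fgf10 regions (red), all distal regions (grey) and distal regions of like GC content (open diamonds). The homeodomain motif was found in 38.9% of the distal Fgf10 regions and 12% of all distal regions. For this motif the shares of distal regions of like GC content summed to 3.62 of 18. With 18 regions each Fgf10 point moves in steps of 5.56 percentage points.

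Among the genes of the FGF pathway Fgf10 had the most E10.5 regions of any ligand examined. The 17 other FGF ligands examined had 35 regions at E9.5, of which 11 were stage-specific (31.4%), and 43 at E10.5, of which 20 were stage-specific (46.5%). A promoter region was found for 11 of these in the E9.5 list and for 9 in the E10.5 list. Fgf7, the ligand closest to Fgf10 in its receptor preference, had 2 regions at E9.5 and 5 at E10.5, of which 0 and 3 were stage-specific, and a promoter region at E10.5 only. Fgf8, expressed in the ridge and induced by FGF10, had 4 E9.5 regions (3 specific) including its promoter, and 1 shared E10.5 region that was not at the promoter. Fgf4, another ridge ligand, had 1 E9.5-specific region at its promoter and 0 at E10.5. Fgf9 had 3 regions (1 specific) at E9.5 and 6 (4 specific) at E10.5. In numbers of stage-specific regions 7 of the 17 ligands had more at E10.5, as Fgf10 did, and 4 had more at E9.5.

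**Figure D5:**
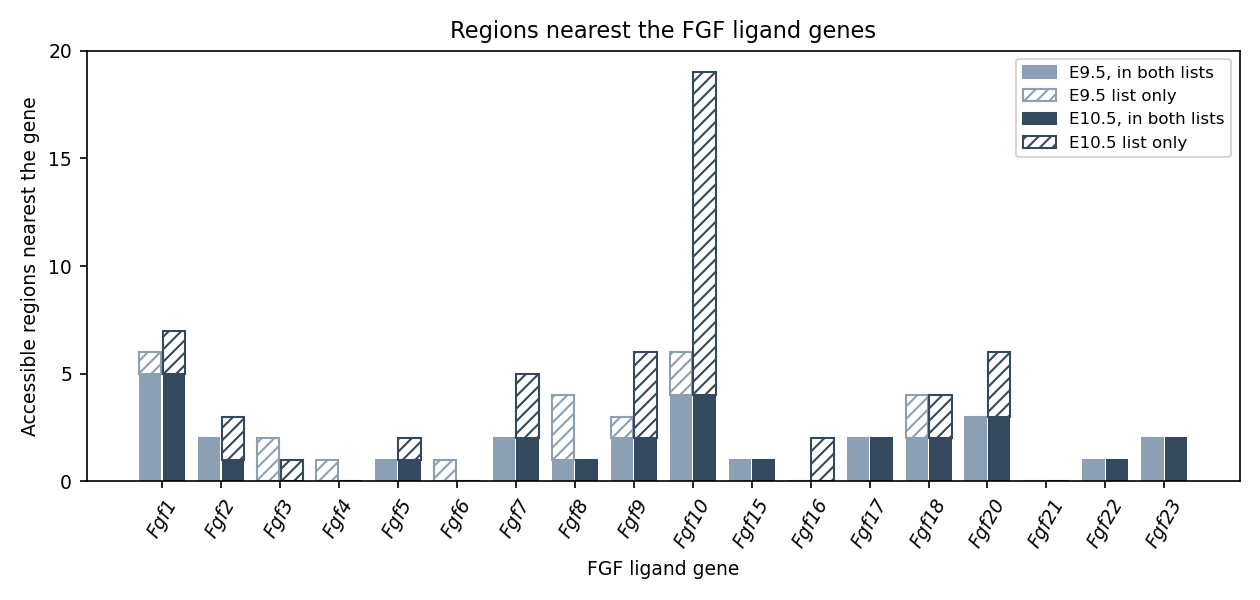
Number of accessible regions nearest each FGF ligand gene at E9.5 (light) and E10.5 (dark), with filled parts for regions present in both lists and hatched parts for stage-specific regions. Fgf10 had 6 regions in the E9.5 list and 19 in the E10.5 list, and no other ligand had more than 7 regions at either stage.

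The other genes of the pathway are given as counts of stage-specific regions, a class that took up 29.9% of the whole E9.5 list and 35.0% of the whole E10.5 list. The 5 receptor genes had 15 of 36 regions stage-specific in the E9.5 list (41.7%) and 6 of 27 in the E10.5 list (22.2%). Fgfr2, which encodes the receptor of FGF10, accounted for 10 of 18 and 4 of 12 of these. For the 10 feedback and target genes, which include the Sprouty genes and Etv4 and Etv5, the counts were 16 of 53 (30.2%) and 27 of 64 (42.2%). Near the 15 limb regulators linked to Fgf10, 40 of 118 (33.9%) and 47 of 127 (37.0%) were stage-specific. In numbers of stage-specific regions 6 of these 15 regulators had more at E10.5 and 9 had more at E9.5. Among the 6, Gli3 had 7 of 16 and 15 of 24 regions stage-specific, and Hand2 1 of 10 and 11 of 19. Both were named after their values were seen. Tbx5 had a promoter region at both stages with 2 of 4 and 1 of 3 regions stage-specific.

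Counts like those of Fgf10 were found at other genes. Of 863 protein-coding genes with at least 10 nearest regions at E10.5, 74 (8.57%) had a stage-specific share as high as Fgf10, and the median share was 54.5%. The excess of E10.5-specific over E9.5-specific regions at Fgf10 was 13, and 42 of these genes had as large an excess. By the summed difference in both shares, the 5 most similar among 840 genes with at least 10 E10.5 and 3 E9.5 regions were Lcorl, Hs3st1, Slitrk6, 1700047G07Rik and Igfbp7. Lcorl (chromosome 5) had exactly the counts of Fgf10, 2 of 6 and 15 of 19, and the fifth, Igfbp7, had 2 of 6 and 17 of 21. The likeness rests on 2 percentages per gene.

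The limits of the locus depend on the rule. The regions just outside it before the gene lay at -223.9 kb at both stages, 103.6 kb from the Mrps30 start and 179.0 kb from the first Fgf10 start. Their score was 368.18 in the E9.5 list (59.5 percentile) and 896.14 in the E10.5 list (84.0 percentile). Just inside were the regions at -120.6 kb at E9.5 (75.6 kb from the first Fgf10 start) and -122.5 kb at E10.5 (77.6 kb). After the gene, the first outside region at E10.5 lay at 350.4 kb, 343.9 kb from Nnt, with a score of 301.69, and at E9.5 at 428.9 kb, with a score of 131.05. The last inside were those at 267.8 and 266.8 kb. Before the gene, the outside region at -223.9 kb was not alone. Its neighbour at -242.3 kb scored 173.36 at E9.5 (34.8 percentile) and 634.04 at E10.5 (76.9 percentile). This region and that at -223.9 kb were both shared and stood amid 4 E10.5-specific regions between -254.6 and -225.7 kb. Between the starts of Mrps30 and Nnt, beyond 2.5 kb of either, the E9.5 list had 4 stage-specific regions of 12 and the E10.5 list 24 of 32 (75%). A nearest start does not show which gene a region acts on, and of the neighbours Mrps30 had 0 of 3 and 11 of 14 stage-specific regions and Nnt 2 of 5 and 3 of 6.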

How the data were processed

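Accessible regions were profiled by ATAC-seq in 4 samples, 2 per stage. The authors aligned reads to mm9 with Bowtie 1.1.0, called regions per replicate with MACS 1.4 without a control, and merged both replicates into 1 list per stage with MSPC (stringent p-value 1e-10, weak p-value 1e-06). The deposited score of a region is 10 times the negative log10 of its best MACS p-value and was not scaled for depth. Read totals were not used here, so depth is unknown.

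Here, the distance from each region's centre to the nearest start of 22380 protein-coding genes (GENCODE vM1, NCBIM37, same chromosome names as mm9) assigned regions to genes, with promoter-proximal meaning within 2.5 kb. Stage-specific regions had no overlap of 1 bp or more with the other list. GC content and motifs came from 150 bp on each side of the centre. Shares at Fgf10 carry 95% Wilson intervals. Scripts (Python 3.11.15, numpy 2.4.6, scipy 1.17.1) were tested on simulated regions. No statistical test was made, because each stage has 1 combined list. Genes named by likeness were those with the smallest summed difference from Fgf10 in both stage-specific percentages. The sequences shown were the promoter, the 3 highest-scoring E10.5-specific regions, the highest-scoring shared distal region and each E9.5-specific region, of which 1 stretch is not reported here. The locus, gene lists and motifs were chosen with earlier results of these data known. Alternatives changed the start set, the overlap, the score threshold and the sequence window.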

Additional observations from a re-analysis of the deposited data

How the results depend on the processing

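No paired analysis was possible because replicates were merged before deposit and only 1 list exists per stage. Without values per replicate, fits that omit a replicate were not run either. Of 48 alternatives for counts, shares and medians, 28 stayed within 1.5 times the count, or within the interval or range of the value. The other 20 moved further. None was counted as reversed, but a single count, share or median has no direction to reverse. The 28 include alternatives that could not move. The lowest score at Fgf10 was 100.33, so a score of at least 100 left its region counts and medians unchanged. With starts of all gene types, 11 Fgf10 regions were left at E10.5 (5 at E9.5), since all 8 regions after the 3' UTR were then nearest to the antisense gene Gm16263. Its start was also the nearer one for the distal regions of the first intron and the region at the 3' UTR. Those were kept only because they lie inside or overlap the gene. Restriction to the higher-scoring 50% of both lists kept 1 region at E9.5 (0 stage-specific) and 8 at E10.5 (7 stage-specific), against 25.9% and 31.9% of all regions. Counting gaps of at most 500 bp as shared left 1 E9.5-specific region and 14 E10.5-specific regions at Fgf10, and 28.4% and 34.0% of all regions. In both of these settings the E9.5 share at Fgf10 lay below that of all regions. In the main setting it lay above (33.3% against 29.9%). The interval between the neighbouring starts, chosen after seeing the data, held 12 regions at E9.5 (4 specific) and 32 at E10.5 (24 specific). The stage-specific share of all regions at E9.5 and E10.5 was 33.4% and 39.3% with a reciprocal overlap of at least 50%, and 27.9% and 32.9% for scores of at least 100 against the whole other list. At E9.5 it was 31.1% when the centre had to fall within a region of the other stage and 30.8% with both lists at a score of at least 100. At E10.5 the count at Fgf10 stayed between 14 and 16 of 19 in the settings that kept all 19 regions. Of 36 motif alternatives (whole regions, which are longer than the window), 23 moved. Unknown depth and the lack of values per replicate limit every comparison, and most Fgf10 regions scored low. The causes of the other changes were not tested.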
